A study of Homo sapiens with 4 samples.

Results

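A readthrough gene model joins 2 neighbouring genes on the same strand into 1 annotated transcription unit, and is named after both genes with a hyphen, the upstream gene first. The 49 models described here were the entries of the deposited gene table whose name was X-Y with 1 hyphen, where X and Y were themselves gene names of the table on the same chromosome. Names that began with HLA- or MT-, or ended in AS and a digit, were left out. The 49 models stood among 20369 gene entries, and no measured level was used to choose them. Of the 49, 34 had a mean of at least 1 FPKM over the libraries and entered the test across all genes. FPKM relates the fragments of a gene to its length and to all mapped fragments of the library, so levels of different genes are given per length.

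Transcription of a gene normally ends after the cleavage and polyadenylation complex has cut the nascent RNA at the poly(A) signal. When polymerase continues into the next gene on the same strand, the long precursor can be spliced from an exon of the upstream gene to an exon of the downstream gene, which removes the signal between them. Such RNAs can encode a fusion of both proteins, but many shift the reading frame and are annotated as targets of nonsense-mediated decay, the pathway that degrades mRNAs with an early stop codon.

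The cells were MDA-MB-231 BM1 (1833) and MDA-MB-231 LM2 (4175), human triple-negative breast cancer cells that the labels class as derivatives for bone and lung metastasis, respectively. Each line was measured after stable lentiviral expression of a non-specific shRNA (control) or of an shRNA against hnRNPM (knockdown), an RNA-binding protein that regulates splicing. RNA was isolated with Trizol, and the TruSeq libraries were stranded, paired-end and selected for poly(A). There were 4 libraries, 1 per line and treatment, with no label for a separate culture or for the number of shRNAs. P-values therefore rest on these 4 samples alone and measure no spread between cultures. In each SE the spread over all genes weighs 7.7 degrees of freedom, and the gene's own spread 1. HNRNPM itself was at 171 FPKM in the BM1 control and 28.4 in the BM1 knockdown, and at 132 and 20.3 in LM2, a difference of -2.59 ± 0.25 on the log2(FPKM + 1) scale (SE; limma, Benjamini-Hochberg adjusted p = 0.00318). Of the genes set to check the line, VIM, CD44 and AXL were high (155 to 2354 FPKM over the libraries). EPCAM and GATA3 were at 2.5 to 4.59 FPKM, and ERBB2 was at 13.5 to 21.9 FPKM. ESR1, PGR, PTPRC, PECAM1 and ALB had no entry among the genes used here, so no level can be given for them. Steps between low values put the depth at about 31300000 and 22800000 fragments in the control and knockdown of BM1, and 41500000 and 27300000 in those of LM2. The mitochondrial share of all FPKM was 9.3% and 8.8% in the BM1 and LM2 controls and 12.8% and 11.8% in the knockdowns.

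The joins of 10 models are shown because the results below turn on them. Each line gives the last 15 bases of the upstream gene's exon in lower case and the first 15 bases of the downstream gene's exon in capitals, 5′ to 3′ as in the RNA but written with T. The interval is the intron between both exons, in GRCh38 from GENCODE 29, with its strand. Where a model has no exon bases of its own, only such joins distinguish its RNA from those of both genes.

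SENP3-EIF4A1, chr17:7571480-7572283, plus strand: ctgcaaactcactgtCCAGGGGAATCCTCC

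TMED7-TICAM2, chr5:115581198-115616317, minus strand: aagagtggcctattgGCACAGTGTGGATAC

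SYS1-DBNDD2, chr20:45365687-45408459, plus strand: caacgccctcacctgGAGCTGACATGGACC

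RPL36A-HNRNPH2, chrX:101395458-101411935, plus strand: gataagaagagaaagCTACACCAAAATTGC

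HNRNPUL2-BSCL2, chr11:62707325-62715499, minus strand: caatacaatcgggatGGACCCTCCATTTTC

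P2RX5-TAX1BP3, chr17:3664799-3669057, minus strand: ggcgcccggagctcgCAAAGAGTTGAAATT

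TVP23C-CDRT4, chr17:15440286-15545784, minus strand: acagtaaagtggctgGAATCTGAACCTGTG

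PTGES3L-AARSD1, chr17:42964238-42970288, minus strand: atggatgatttggatTTCACCACCACCGTG

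NEDD8-MDP1, chr14:24215663-24218132, minus strand: cagtggcaagcagatTGATGGAACTGTACG

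NME1-NME2, chr17:51161273-51166826, plus strand: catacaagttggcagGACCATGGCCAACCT

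The join lies between coding exon ends in these models except P2RX5-TAX1BP3, whose single annotated transcript has an untranslated exon on each side. NEDD8-MDP1, PTGES3L-AARSD1, TMED7-TICAM2, TVP23C-CDRT4 and RPL36A-HNRNPH2 have a further annotated join, and the one shown belongs to a protein-coding transcript. Across the set, 45 models had at least 1 annotated splice from an exon of X to an exon of Y. With 1 transcript taken per model, a protein-coding one where available, the introns had 784 to 125247 bases (median 10963). Of these 45 joins, 33 joined coding bases to coding bases and 12 joined untranslated bases. Other transcripts of a model can differ, with introns of 480 bases in MSH5-SAPCD1 and 130257 in GPR75-ASB3. SYNJ2BP-COX16 and BORCS8-MEF2B, counted as untranslated, also have a transcript that joins coding bases.

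The 49 models lay on 21 chromosomes, 8 of them on chromosome 17, and X and Y shared a strand in each. X lay upstream of Y in 48, and the exception was PRH1-PRR4. In the counts below, PRH1 is grouped with the upstream genes and PRR4 with the downstream genes, by their order in the name. The table's coordinates are on GRCh37 per the submitters' processing notes. On that build X ended before Y began in 40 models, with a gap of 138 to 108016 bases and a median of 3552.5, and the gap was under 1000 bases in 10 of them and under 10000 in 27. In the other 9 the spans of X and Y overlapped. The models spanned 4.89 to 392 kb (median 37.1). The start of the model lay within 500 bases of the start of X in 33, the end within 500 bases of the end of Y in 34, and both held in 23. In RefSeq, where 35 starts could be compared, 27 models began within 100 bases of X and 19 began at the same base.

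In most models, most of the exon sequence is shared with the flanking genes. In GENCODE 29, 48 models matched by gene ID (ERCC6-PGBD3 was the exception), and a median of 4.66% of a model's exon bases lay in neither X nor Y. This share was under 10% in 29 of the 48. In 9 models this share was 0, RPL36A-HNRNPH2, HNRNPUL2-BSCL2, NME1-NME2, NEDD8-MDP1 and TVP23C-CDRT4 among them. Fragments from such a model can be told from those of X or Y only where they cross the join, and the division of shared fragments by the quantification was not stated. The models with most exon bases of their own were ZNF670-ZNF695 (72.0%), ARMCX5-GPRASP2 (65.0%) and P2RX5-TAX1BP3 (53.2%).

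**Figure D1:**
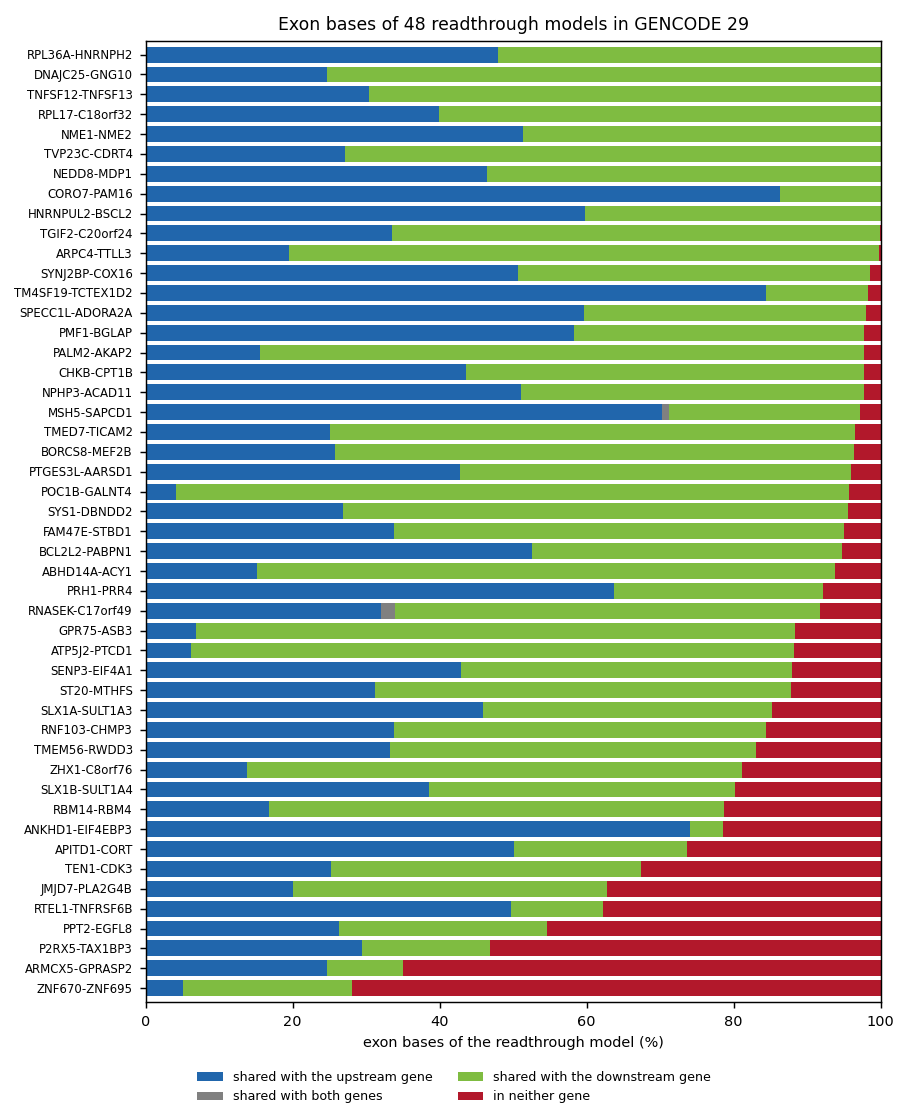
Horizontal bars give the exon bases of each of 48 readthrough models in GENCODE 29, in percent, divided into bases shared with the upstream gene, with the downstream gene, with both, and in neither. The red part is absent in 9 models at the top and reaches 72.0% in ZNF670-ZNF695 at the bottom.

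The annotation of their products was mixed. The 48 models held 184 transcripts, of which 71 were annotated as protein-coding and 66 as targets of nonsense-mediated decay, and 27 models had at least 1 transcript of the latter kind. For 6 models, SENP3-EIF4A1, HNRNPUL2-BSCL2 and P2RX5-TAX1BP3 among them, it was the only kind. In 21 models the coding transcript kept codons of both genes in frame, as in NME1-NME2 (139 codons of NME1 and 152 of NME2), PTGES3L-AARSD1 (187 and 399) and TNFSF12-TNFSF13 (166 and 164). In 7 it kept only the frame of X, as in RPL36A-HNRNPH2, where 100 of 118 codons matched RPL36A and 0 matched HNRNPH2. In 2 it kept only the frame of Y, and in 18 there was no protein-coding transcript with whole codons.

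Readthrough models were mostly lower than the genes they join. The median over the 49 models of the mean level was 2.38 FPKM, against 6.47 for X, 4.64 for Y and 3.79 for all genes of the table. The model was below both of its genes in 27 cases and above both in 1, TEN1-CDK3 (3.21, 3.68, 3.97 and 4.32 FPKM in the BM1 control, the knockdown of BM1, the control of LM2 and its knockdown, the order used from here on). TEN1, a subunit of a telomere-binding complex, was at 1.13, 3.16, 1.18 and 0.59 FPKM, and CDK3, a cyclin-dependent kinase, at 0.898, 0.703, 0.561 and 0.785.

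NME1-NME2, which joins 2 nucleoside diphosphate kinase genes, was the most abundant model, at 289, 103, 254 and 217 FPKM. The BM1 knockdown library was the low one. SENP3-EIF4A1 came next, followed by RPL17-C18orf32 (26.2, 34.6, 16.5 and 15.9 FPKM), whose upstream gene encodes a ribosomal protein, and RNASEK-C17orf49 (26.4, 17.4, 19.6 and 23), whose upstream gene encodes a ribonuclease. DNAJC25-GNG10 (7.73, 10.3, 16 and 22.9 FPKM), ANKHD1-EIF4EBP3 (8.08, 16.8, 12 and 15.3) and PPT2-EGFL8 (18.1, 14.2, 7.57 and 7.05) were also among the 8 most abundant. NME1 and NME2 are similar paralogs, SLX1A-SULT1A3 and SLX1B-SULT1A4 are near-identical copies, and RPL17 and RPL36A have many processed pseudogenes, so the levels of these models are uncertain.

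The 15 models under the limit had means of 0.0506 to 0.879 FPKM. Just inside were CORO7-PAM16 (1.15), APITD1-CORT (1.17) and SLX1B-SULT1A4 (1.3), and just outside were PALM2-AKAP2 (0.879), GPR75-ASB3 (0.825) and SPECC1L-ADORA2A (0.742). No value in the table was 0, and the smallest was 1e-06 FPKM. Among the 49 models the lowest value was that of TMEM56-RWDD3, at 0.00136 FPKM in the BM1 control.

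**Figure D2:**
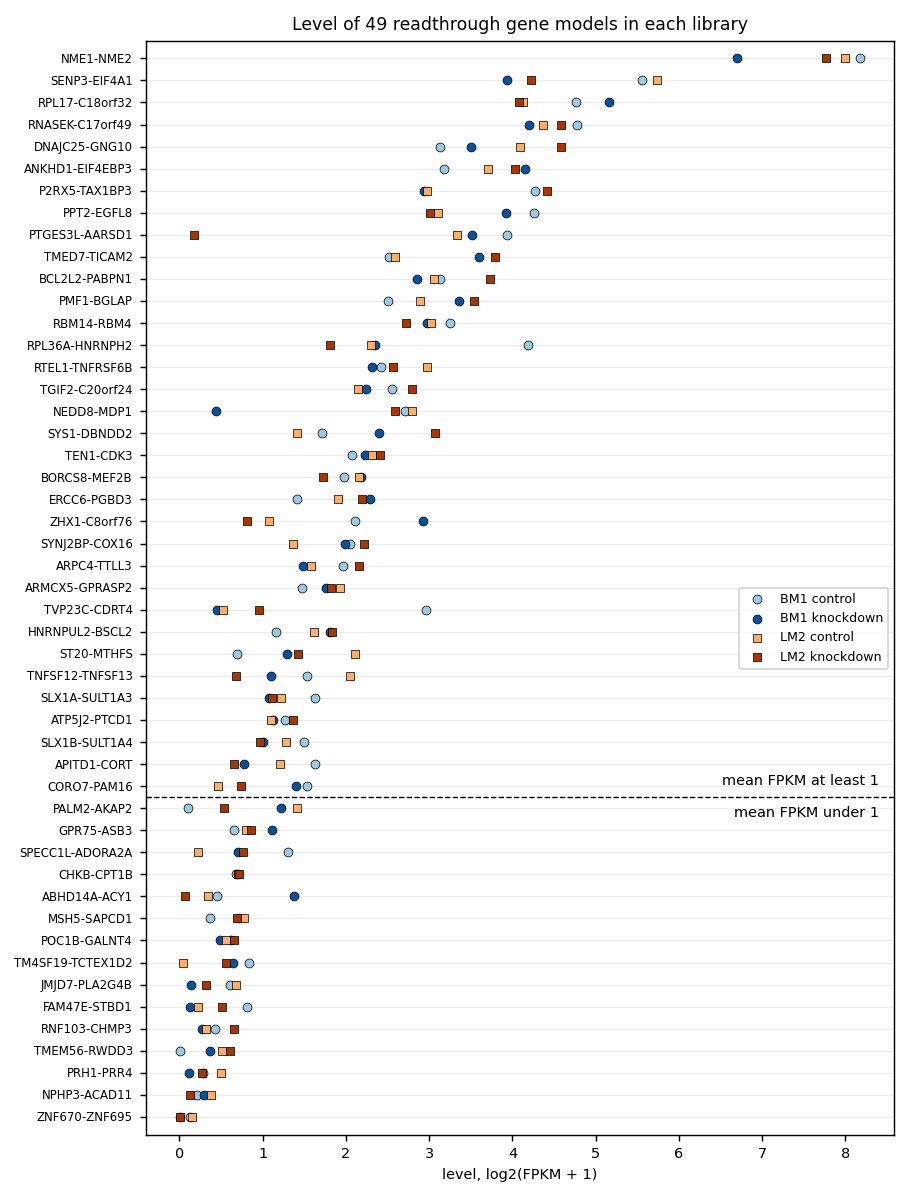
Points give the level of each of 49 readthrough models in each of the 4 libraries, as log2(FPKM + 1), ordered by mean; circles are BM1, squares LM2, darker shades the knockdown, and the dashed line separates means of at least 1 FPKM from those under 1. NME1-NME2 is highest, and TVP23C-CDRT4, NEDD8-MDP1 and PTGES3L-AARSD1 each have 1 library far from the rest.

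Few models, as few of all genes, differed by at least 2-fold between knockdown and control the same way in both lines. SENP3-EIF4A1 fell and TMED7-TICAM2 rose, and these were the 2 of 34 models called by limma (Benjamini-Hochberg adjusted p under 0.05 over all 13928 genes tested), against 5.47% of all genes (2.76% called lower and 2.71% higher). They were also the 2 of 34 that changed by at least 2-fold the same way in both lines, against 3.86% of all genes. At an unadjusted p under 0.05 there were 11 of 34, against 24.9% of all genes. The share called among the models was therefore close to that of the background. Both calls were lost in every fit that left out a library, had no line term, used a pseudocount of 0.1 or tested genes without the filter. Fits that left out a library also had no line term. All or nearly all calls over all genes were lost in these settings too, so the loss is not particular to these models.

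SENP3-EIF4A1 (chr17:7466604-7482033 on GRCh37, plus strand) joins the gene of a SUMO-specific protease to that of the RNA helicase eIF4A1, which unwinds mRNA for translation initiation. It was at 45.9, 14.3, 52.3 and 17.7 FPKM. Both knockdown libraries were below both controls, at 31.2% of the control in BM1 and 33.8% in LM2. The difference was -1.56 ± 0.25 on the log2(FPKM + 1) scale (SE, n = 2 pairs; limma, adjusted p = 0.0157). SENP3 alone was at 42.8, 49.5, 25.5 and 26.8 FPKM and differed by 0.14 ± 0.25 (limma, adjusted p = 0.776). EIF4A1 alone was at 350, 266, 187 and 236 FPKM, and its difference was -0.03 ± 0.28 (limma, adjusted p = 0.961). The single transcript of the model, an annotated target of nonsense-mediated decay, had 422 exon bases of its own, which is 12% of its exon bases.

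TMED7-TICAM2 (chr5:114914339-114961858 on GRCh37, minus strand) joins TMED7, a cargo receptor of the early secretory pathway, to TICAM2, an adaptor of Toll-like receptor 4. It was at 4.74, 11.1, 5.01 and 12.8 FPKM, so both knockdowns were above both controls, at 235% and 256% of them. The difference was 1.14 ± 0.25 on the log2(FPKM + 1) scale (SE, n = 2 pairs; limma, adjusted p = 0.0388). TMED7 was at 13.6, 17.4, 23.9 and 19.9 FPKM, with a difference of 0.04 ± 0.27 (limma, adjusted p = 0.944). TICAM2 alone was under the filter, at 0.163, 1.51, 0.924 and 0.245 FPKM. It was higher in the knockdown in BM1 and lower in LM2. The coding transcript of the model keeps 189 codons of TMED7 and 215 of TICAM2 in frame.

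SYS1-DBNDD2 joins SYS1, a membrane protein of Golgi trafficking, to DBNDD2. It was at 2.27, 4.26, 1.66 and 7.37 FPKM, higher in each knockdown than in either control, but its difference of 1.17 ± 0.30 missed the threshold (limma, adjusted p = 0.0589). DBNDD2 went the other way, at 117, 43.1, 76.4 and 34.8 FPKM, and fell by 1.27 ± 0.26 (limma, adjusted p = 0.0296). SYS1 was at 14.5, 13.7, 12.2 and 17.6 FPKM. The model held 1.7% of the FPKM of its locus in the BM1 control and 6.97% in the BM1 knockdown, and 1.84% and 12.3% in LM2. Of the model's exon bases, 68.8% lie in DBNDD2, and its values were higher in the knockdowns where those of DBNDD2 were lower.

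The parent genes were called about as often as the models. Among 45 testable upstream genes 4 were called in the knockdown contrast, and among 37 downstream genes 3, against the same 5.47%. TMEM56 (1.24 ± 0.26, adjusted p = 0.0324) and the DNA repair gene ERCC6 (1.19 ± 0.26, adjusted p = 0.0359) rose, and ST20 (-1.31 ± 0.26, adjusted p = 0.0296) and ARMCX5 (-1.51 ± 0.27, adjusted p = 0.0209) fell in the limma fit. The downstream genes DBNDD2, ACY1, an aminoacylase (-1.06 ± 0.25, limma adjusted p = 0.0478), and AKAP2, which anchors protein kinase A (-1.21 ± 0.26, limma adjusted p = 0.0345), fell. Of the readthrough models of these 7 genes, the 4 that passed the filter were not called, and TMEM56-RWDD3, ABHD14A-ACY1 and PALM2-AKAP2 were too low to be tested. ERCC6-PGBD3 was at 1.66, 3.88, 2.75 and 3.59 FPKM, and its difference of 0.58 ± 0.27 had a limma adjusted p of 0.223. ARMCX5-GPRASP2 was at 1.78 to 2.82 FPKM where ARMCX5 was at 5.86, 1.96, 7.18 and 1.35, so that the model's share of the locus went from 13% to 27.2% in BM1 and from 24.2% to 56.7% in LM2.

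Within a line there was 1 library per arm, so a change there was only counted, with no p-value, where it reached 2-fold (1 on the log2(FPKM + 1) scale). In BM1, 7 of 34 models passed, against 16.3% of all genes: TMED7-TICAM2 was higher in the knockdown (10.1% of all genes), and NEDD8-MDP1, P2RX5-TAX1BP3, SENP3-EIF4A1, TVP23C-CDRT4, NME1-NME2 and RPL36A-HNRNPH2 were lower (6.2% of all genes). Of these, TVP23C-CDRT4 met the filter on mean FPKM only through its BM1 control, which favours a fall in BM1. In LM2, 6 of 34 passed, against 8.06%, with P2RX5-TAX1BP3, SYS1-DBNDD2 and TMED7-TICAM2 higher (3.83% of all genes) and TNFSF12-TNFSF13, SENP3-EIF4A1 and PTGES3L-AARSD1 lower (4.24%). Among genes whose span overlaps another gene of the table on the same strand, as that of each model does, the shares were 15.8% in BM1 and 8.9% in LM2. The median change of the 34 models was -0.21 in BM1 and 0.02 in LM2, where the medians of all genes were 0.01 and -0.04. The other 24 models lay between -0.85 and 0.97 in BM1 and between -0.68 and 0.85 in LM2, where the last value is that of SYNJ2BP-COX16 (3.13, 2.98, 1.58 and 3.64 FPKM). The 15 models below the filter lay between -0.68 and 1.11 in BM1 and between -0.87 and 0.54 in LM2. PALM2-AKAP2 had the highest of these values in BM1 and the lowest in LM2, at 0.0782, 1.32, 1.66 and 0.455 FPKM, and AKAP2 was at 42, 19.5, 18.6 and 6.68. The low models rest on few fragments, so a 2-fold change there is less firm.

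The lines often did not move together. The knockdown change had opposite signs in BM1 and LM2 in 14 of 34 models, against 30.9% of all genes. The Pearson correlation between the changes of the lines was 0.23 over the 34 models and 0.55 over the 13928 genes, described here without a test because genes are not independent replicates. P2RX5-TAX1BP3 changed by at least 2-fold in opposite ways, 1 of 34 against 0.129% of all genes. The changes of the lines differed by at least 4-fold in 4 of 34 models, a limit chosen after the values were seen, against 0.962% of all genes. They were NEDD8-MDP1, P2RX5-TAX1BP3, TVP23C-CDRT4 and PTGES3L-AARSD1. TVP23C-CDRT4 met the filter on mean FPKM only through its high BM1 control, so its place in this count is no separate evidence. Among the 9948 genes with a mean of 1 to 20 FPKM, the range that holds these 4, the share was 1.06%. Among the 2427 genes whose span overlaps another gene of the table on the same strand it was 2.14%, and 1.9% once the 49 loci were left out. The downstream genes of the models, read from the same 4 libraries, had opposite signs in 16 of 37, changes at least 4-fold apart in 3 of 37 (TAX1BP3, CDRT4 and HNRNPH2), and 2-fold in opposite ways in 1 of 37 (HNRNPH2). Among upstream genes these counts were 16, 1 and 1 of 45. The difference between the lines cannot be tested with 1 library per line and treatment.

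**Figure D3:**
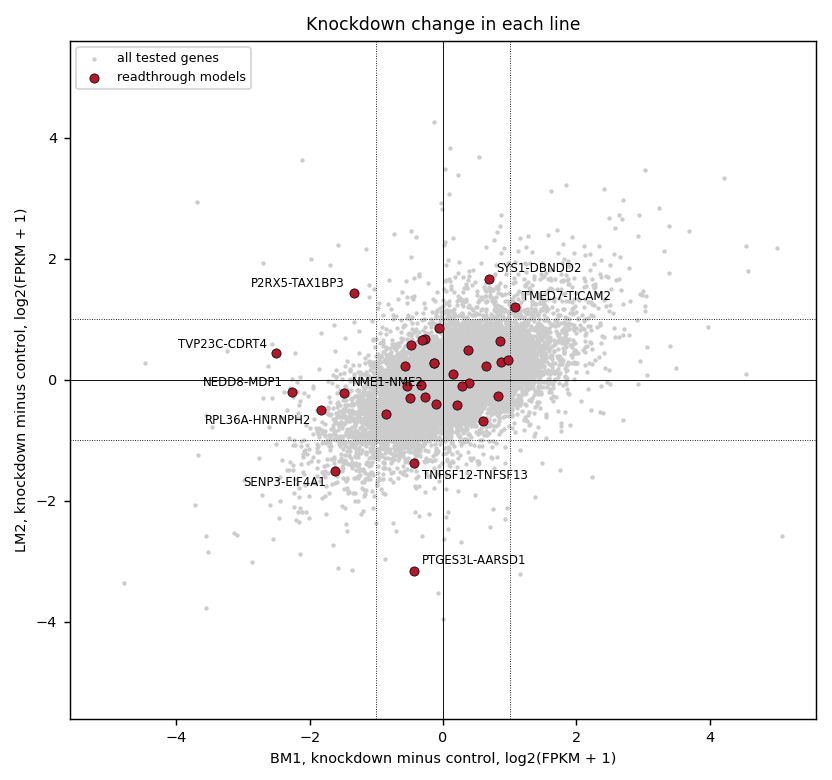
Each point is a gene with a mean of at least 1 FPKM; the axes give knockdown minus control in BM1 (horizontal) and LM2 (vertical) as log2(FPKM + 1), red points are the 34 readthrough models, and dotted lines mark 2-fold. SENP3-EIF4A1 and TMED7-TICAM2 pass 2-fold the same way in both lines, whereas P2RX5-TAX1BP3 sits at -1.33 in BM1 and 1.44 in LM2.

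P2RX5-TAX1BP3 joins an ATP-gated ion channel gene to that of a PDZ domain protein. It was at 18.3, 6.64, 6.86 and 20.3 FPKM. The knockdown library was the low one in BM1 and the high one in LM2, with changes of -1.33 and 1.44. TAX1BP3 ran opposite to the model in each line, at 28.5, 56.6, 111 and 24.8 FPKM (0.97 and -2.12). P2RX5 was at 2.89, 3.58, 2.65 and 4.71 FPKM. The model's share of the locus was 36.8% and 9.94% in BM1 and 5.69% and 40.7% in LM2. Of its exon bases 53.2% are its own, against 0 to 3.99% in the other 3 models of this group.

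TVP23C-CDRT4, whose upstream gene encodes a Golgi membrane protein, was at 6.79, 0.366, 0.433 and 0.934 FPKM. The BM1 control alone was high, and it rests on about 601 fragments against 24, 51 and 72 in the other libraries. CDRT4 was low in that library, at 1.13, 4.47, 5.79 and 2.57 FPKM, and TVP23C was at 3.99, 6.77, 7.53 and 8.89. The sum over the locus was 11.9, 11.6, 13.8 and 12.4 FPKM, so the model's share was 57% in the BM1 control and 3.15% to 7.53% elsewhere.

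PTGES3L-AARSD1 joins a p23-like co-chaperone gene to that of an editing protein for alanyl-tRNA, and was at 14.3, 10.4, 9.1 and 0.127 FPKM. The LM2 knockdown alone was low, at 1.39% of its control and about 7 fragments. AARSD1 was at 12.2, 13.6, 12 and 20.3 FPKM, highest in that library, and the sum over the locus was 28, 24.6, 21.5 and 20.7. The model's share was 51.2%, 42.2%, 42.3% and 0.611%. Averaged over the lines the difference was -1.80 ± 0.53 (limma, adjusted p = 0.0843). Without the LM2 knockdown and with no line term, which sets the BM1 knockdown against both controls, it was -0.13.

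NEDD8-MDP1 joins NEDD8, a ubiquitin-like protein that is attached to cullins, to MDP1, a phosphatase. It was at 5.53, 0.353, 5.92 and 5.01 FPKM, or about 131, 6, 186 and 104 fragments, with the BM1 knockdown alone low. NEDD8 was at 129, 109, 101 and 104 FPKM and MDP1 at 6.19, 4.06, 3.87 and 3.07. Neither NEDD8 nor MDP1 was at its highest or lowest in that library.

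RPL36A-HNRNPH2 (chrX:100645999-100667285 on GRCh37, plus strand) joins the gene of a ribosomal protein of the large subunit to that of an hnRNP H family splicing regulator. It was at 17.2, 4.11, 3.95 and 2.49 FPKM. The BM1 control was high, and the other 3 libraries were within 2-fold of each other. RPL36A was at 445, 388, 547 and 482 FPKM in the same libraries. HNRNPH2 was at 0.505 FPKM in the BM1 control, where the model was high, and at 49.9, 49.1 and 7.35 in the others. Within BM1 the model changed by -1.84 and HNRNPH2 by 5.08, and within LM2 by -0.50 and -2.59. The average difference of the model was -1.17 ± 0.34 (limma, adjusted p = 0.081). In fits with no line term it was -0.23 when the control of BM1 was left out and -2.11 when that of LM2 was. The difference of HNRNPH2 was 1.25 ± 1.32 (adjusted p = 0.6). The model and HNRNPH2 together came to 17.7, 54, 53.1 and 9.84 FPKM, so their sum varied as well.

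HNRNPUL2-BSCL2 (chr11:62457747-62494856 on GRCh37, minus strand) joins an hnRNP U-like gene to BSCL2, which encodes the lipid droplet protein seipin. It was at 1.23, 2.49, 2.06 and 2.57 FPKM, low in the BM1 control, with a difference of 0.43 ± 0.26 (limma, adjusted p = 0.34). Both of its genes were lower in each knockdown than in the control of the line. HNRNPUL2 was at 64.7, 42, 46.8 and 33.3 FPKM (-0.54 ± 0.25; limma, adjusted p = 0.223), and BSCL2 at 21.5, 9.19, 14.8 and 9.81 (-0.84 ± 0.27; adjusted p = 0.105). The model's share of the locus was 1.4%, 4.64%, 3.25% and 5.62%.

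**Figure D4:**
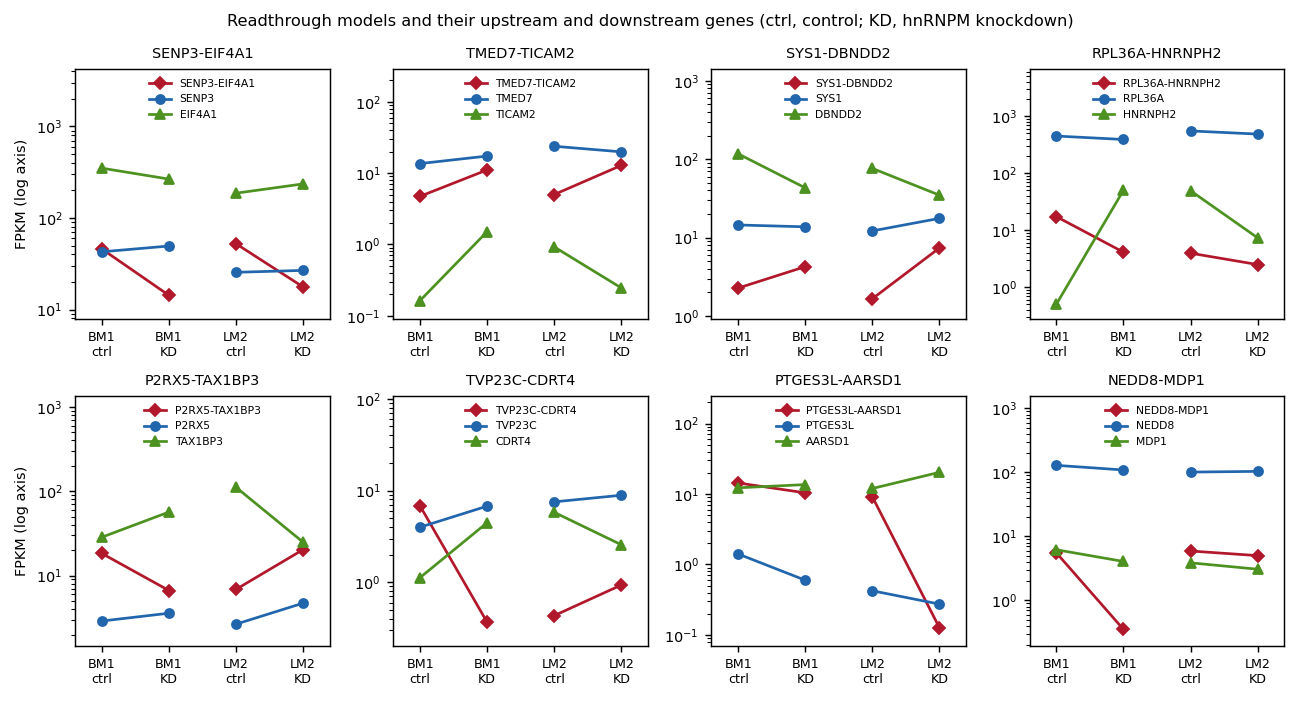
Each panel plots the FPKM (log axis) of a readthrough model (red diamonds), its upstream gene (blue circles) and its downstream gene (green triangles) in the 4 libraries, with lines joining control and knockdown of a cell line. SENP3-EIF4A1 is lower in both knockdowns, and TAX1BP3 runs opposite to P2RX5-TAX1BP3 in each line.

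Movement against a partner gene was counted where the model and the gene changed in opposite directions by at least 0.5 on the log2(FPKM + 1) scale. The count covers the 34 models that passed the filter, and other neighbouring genes were not counted in this way. Against the downstream gene this held for 6 models in BM1 (HNRNPUL2-BSCL2, ST20-MTHFS, P2RX5-TAX1BP3, TVP23C-CDRT4, SYS1-DBNDD2 and RPL36A-HNRNPH2) and 4 in LM2 (P2RX5-TAX1BP3, PTGES3L-AARSD1, SYS1-DBNDD2 and TMED7-TICAM2). Against the upstream gene it held for 3 in BM1 (HNRNPUL2-BSCL2, ST20-MTHFS and TVP23C-CDRT4) and 0 in LM2. By sign alone, models went with the downstream gene in 15 and against it in 19 in BM1, and 16 and 18 in LM2. For the upstream gene these counts were 20 and 14 in BM1 and 21 and 13 in LM2. X and Y shared a sign at 17 of the 34 loci in each line. The partner genes were not filtered for level in these counts. Some had a mean under 1 FPKM, such as EIF4EBP3 (0.0951), TNFRSF6B (0.0997) and TICAM2 (0.712), so their signs are less firm. P2RX5-TAX1BP3 and SYS1-DBNDD2 moved against the downstream gene in both lines. Of the models that changed by at least 2-fold, the summed FPKM of model, X and Y changed by less than 2-fold in 7 of 7 in BM1 and 5 of 6 in LM2. The exception was P2RX5-TAX1BP3 in LM2, where the sum changed by -1.26 on the log2 scale. Where the model is a small part of its locus, as at RPL36A-HNRNPH2 (3.72% in the BM1 control) and NEDD8-MDP1 (3.93%), the sum could hardly reflect it. Whether fragments were divided differently between overlapping models from library to library was not tested.

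The share of a locus, the FPKM of the model over the sum of model, X and Y, needs no scaling between libraries. Its median over the 49 loci was 11.9% in the BM1 control and 7.03% in the BM1 knockdown, and 9.13% and 9.56% in LM2. Over the 34 loci whose model passed the filter the medians were 15.2% and 15.2% in BM1 and 16.3% and 12.9% in LM2, so the direction of the median depends on which loci are counted. Within BM1 the share was higher in the knockdown in 18 loci and lower in 31, and within LM2 higher in 25 and lower in 24. The sign was the same in both lines in 24 loci. It moved by at least 10 percentage points in 13 loci in BM1 (5 up, 8 down) and 12 in LM2 (4 up, 8 down). TEN1-CDK3 (61.2%, 48.8%, 69.5% and 75.9%) and RTEL1-TNFRSF6B (38.5%, 44.8%, 66.1% and 47.8%) held the largest shares among models that passed the filter, and ATP5J2-PTCD1, next to an abundant ATP synthase subunit gene, held 0.51% to 0.582%. JMJD7-PLA2G4B held 31% and 4.77% of its locus in BM1 and 42.6% and 13.4% in LM2, but at 0.0993 to 0.605 FPKM it was below the filter. TNFSF12-TNFSF13, which joins the genes of the TNF family ligands TWEAK and APRIL, held 20.3% and 19.5% in BM1 and 39.9% and 14.9% in LM2, at 1.89, 1.15, 3.15 and 0.6 FPKM.

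**Figure D5:**
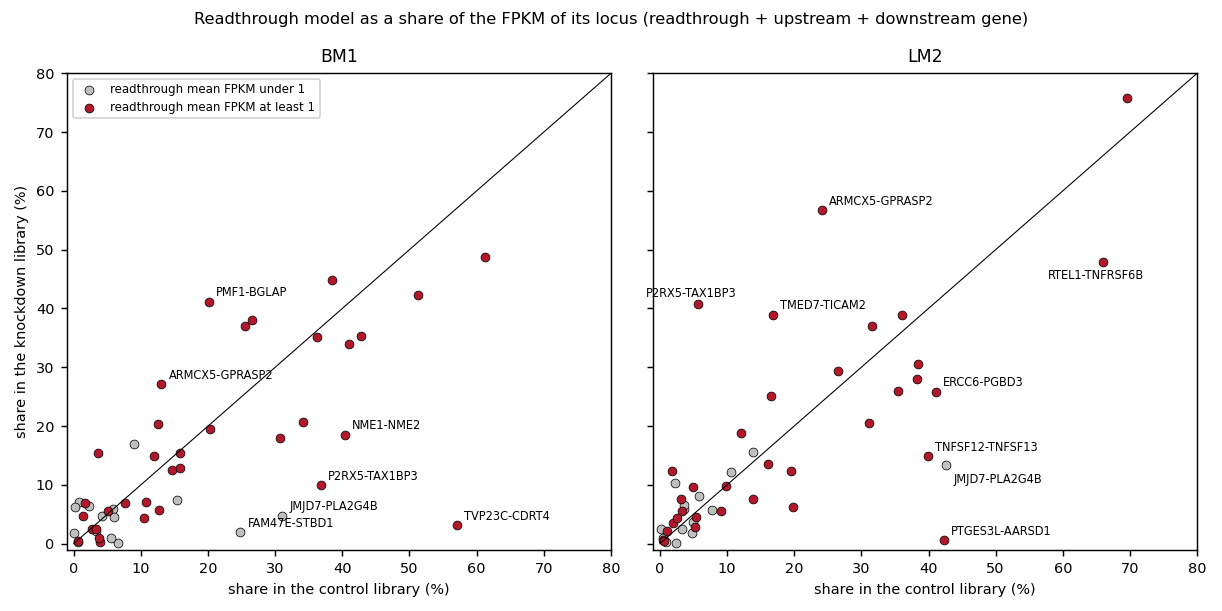
Each point is 1 of 49 loci; the horizontal axis gives the readthrough model's percent of the locus FPKM in the control library and the vertical axis that in the knockdown library, with BM1 on the left, LM2 on the right, equality as a line, and models under 1 FPKM in grey. TVP23C-CDRT4 is at 57% and 3.16% in BM1 and PTGES3L-AARSD1 at 42.3% and 0.611% in LM2, while ARMCX5-GPRASP2 is above the line in both.

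Between the lines, limma called 1 of 34 models, against 4.35% of all genes, 2.04% lower in LM2 and 2.31% higher (9 of 34, against 22.4%, at an unadjusted p under 0.05). It was ZHX1-C8orf76, which joins a zinc finger and homeobox repressor gene to an open reading frame, and it was at 3.32, 6.61, 1.11 and 0.748 FPKM. Both LM2 libraries were below both BM1 libraries, with a difference of -1.58 ± 0.31 (LM2 minus BM1, SE; limma, adjusted p = 0.0288). The call was lost with any of the 4 libraries left out, in fits with no treatment term, with values of -1.99 to -1.17. ZHX1, at 4.37 to 8.4 FPKM, and C8orf76, at 14.4 to 18.7, overlapped between the lines. DNAJC25-GNG10 was higher and PPT2-EGFL8 lower in both LM2 libraries than in both BM1 libraries, with limma adjusted p of 0.06 and 0.0586, and of their genes GNG10 was called higher and PPT2 lower. At least 2-fold between the controls were 7 of 34 models (12.2% of all genes), 6 of them lower in LM2 (5.26%) and 1 higher (6.98%). Between the knockdowns they were 7 of 34 (9.04%), 3 of them lower in LM2 (4.63%) and 4 higher (4.41%). Among the 6 models lower in the LM2 control, CORO7-PAM16 (1.9, 1.64, 0.381 and 0.674 FPKM) met the filter on mean FPKM only through BM1. TVP23C-CDRT4 met it only through the BM1 control. For both, the filter favours this direction, so the count of 6 is less firm.

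Factors that end transcripts or degrade RNAs with an early stop codon were counted against the shares of all genes, 5.47% at an adjusted and 24.9% at an unadjusted p under 0.05. Of 27 genes for cleavage, polyadenylation and termination, 3 had an unadjusted p under 0.05, and limma called 2. It called CSTF3, a subunit of the cleavage stimulation factor, higher (23.4, 49.9, 24.1 and 51 FPKM; 1.06 ± 0.25, adjusted p = 0.0474). It called SSU72, a phosphatase of the RNA polymerase II tail, lower (75.2, 28.6, 68.9 and 35.4 FPKM; -1.15 ± 0.26, adjusted p = 0.0416). Both calls were lost with any library left out, no line term, a pseudocount of 0.1 or no filter, as were all or nearly all calls over all genes. The median difference of the 27 genes was 0.004, where that of all genes was -0.008. Of 14 genes of nonsense-mediated decay, limma called 0 at an adjusted p under 0.05 and 2 had an unadjusted p under 0.05. The median was 0.19, and the largest differences were those of UPF2 (1.06 ± 0.34, limma adjusted p = 0.107), SMG6 (-0.90 ± 0.26, adjusted p = 0.0802) and SMG1 (0.75 ± 0.37, adjusted p = 0.253). UPF2 was at 2.54 FPKM in the BM1 control and 11 in the BM1 knockdown, and at 7.36 and 9.79 in LM2. Whether these factors bear on the levels of the readthrough models was not tested.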

How the data were processed

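The authors deposited 1 table of FPKM values per gene and library, in which no value was 0. STAR 2.5.3a, Cuffdiff 2.2.1 and GRCh37 are named per the submitters' processing notes, and the sources used here give neither the annotation nor the division of shared fragments. The 40 entries with a repeated gene ID (3 names) were left out, which left 20329 genes. The 13928 genes with a mean of at least 1 FPKM were fitted with limma 3.58.1 in R 4.3.3 on log2(FPKM + 1), with terms for line and treatment and 1 residual degree of freedom. A pseudocount of 1 understates the change of low genes. Such a fit can hardly call a gene whose lines disagree. Tests were two-sided, adjusted by Benjamini-Hochberg at 0.05, and the fit was tested on simulated data. With 2 pairs, an exact permutation test cannot give a p below 0.5.

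The line pairs the libraries, since each knockdown shares its cell line with a control; deviations of same-line libraries had a Pearson r of 0.545 across genes. The interaction of line and treatment cannot be tested. Alternatives were a pseudocount of 0.1, no filter, median-of-ratios size factors (0.985 to 1.02), no replicate block, each library left out, and other limits for counts. Fits with a library left out, like those with no replicate block, held only the term under test. Depth was read from the steps of low FPKM values in 1623 genes, where 36.5% to 44.9% of values fell within 0.02 of a whole step, against 2.29% to 3.02% for other steps. Fragments per model are that depth times FPKM times the longest GENCODE transcript, and are approximate.

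Joins were read from GENCODE 29 (GRCh38) by gene ID, and starts from RefSeq, with Python 3.11.15 and pandas 2.3.3 (figures with matplotlib 3.10.9). The models named are both hnRNP models, those called by limma, the 8 most abundant, the 8 with the largest change in each line, the 5 with the largest change of locus share, and the 4 highest and 4 lowest shares. Their X and Y are named with them. From the factor lists, the called genes or the 3 with the largest difference are named. ST20-MTHFS, TMEM56 and ACY1, which come from counts of 7 or fewer, and the models beside the filter were named after their values were seen. Members and lists were chosen with earlier results of these data known.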

Additional observations from a re-analysis of the deposited data

Results flagged for a closer look

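In 3 genes of these loci, knockdown minus control was at least 1 in size on the log2(FPKM + 1) scale in both lines and opposite in sign. P2RX5-TAX1BP3 was at -1.33 in BM1 and 1.44 in LM2. HNRNPH2, the downstream gene of RPL36A-HNRNPH2, was at 5.08 in BM1 and -2.59 in LM2. PRH1, the first-named gene of PRH1-PRR4, was at 1.15 in BM1 and -1.16 in LM2. With 1 library per line and treatment, the difference between the lines was not tested.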

How the results depend on the processing

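Calls of single models were fragile. The 2 models called in the knockdown contrast fell to 0 with a pseudocount of 0.1, without the filter and with no replicate block, where pairing by line was dropped, and the 1 called between the lines and the 2 called genes of the 3′ end processing list fell to 0 under the same settings. With single libraries left out the ranges were 0 to 0 for the knockdown contrast, 0 to 1 between the lines and 0 to 0 for the list. The 1 model called between the lines without the LM2 control was not ZHX1-C8orf76. Size factors changed none of these counts. Over all genes the count of knockdown calls went from 762 to 27 with a pseudocount of 0.1, 866 with size factors, and 0 in the other settings. The SENP3-EIF4A1 difference ran from -1.71 to -1.42 and that of TMED7-TICAM2 from 1.04 to 1.24 with a library left out and no line term.

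Within BM1 the 7 models at 2-fold became 11 with a pseudocount of 0.1 and 15 at 1.5-fold, and in LM2 the 6 became 11 at 1.5-fold. Models moving against the upstream gene in BM1 went from 3 to 5 without the filter and 10 at a limit of 0.25, and in LM2 from 0 to 1 with a pseudocount of 0.1, 1 without the filter and 4 at 0.25. Those against the downstream gene in LM2 went from 4 to 9 at 0.25. Over model and Y alone, the median share was 25% in the BM1 control, 19.2% in its knockdown, 22.8% in the LM2 control and 26.7% in its knockdown. The 4 models with lines 4-fold apart became 5 with a pseudocount of 0.1 and 4 without the filter or with size factors, alternatives chosen after seeing the data. 

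Of the named models, 12 changed sign when 1 library was left out. These fits had no line term, so their values also hold the difference between the lines. The ranges were -0.79 to 1.33 for ZHX1-C8orf76, -0.37 to 0.71 for RPL17-C18orf32, -0.38 to 0.028 for RNASEK-C17orf49, -0.10 to 0.97 for DNAJC25-GNG10, -0.69 to 0.79 for P2RX5-TAX1BP3 and -0.79 to 0.37 for PPT2-EGFL8. They were -2.26 to 0.18 for TVP23C-CDRT4, -0.14 to 0.32 for ARMCX5-GPRASP2, -0.54 to 0.02 for RTEL1-TNFRSF6B, -0.053 to 0.18 for ATP5J2-PTCD1, -0.11 to 0.45 for TGIF2-C20orf24 and -0.28 to 0.39 for ARPC4-TTLL3. None of these was called in the knockdown contrast. DNAJC25-GNG10 was higher in the knockdown in both lines, and PPT2-EGFL8 and RTEL1-TNFRSF6B were lower in both, so their signs changed only in the unpaired fits. The other models listed had opposite signs in the lines, and for them the cause was not tested.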
